A study of Mus musculus with 2 samples.

Results

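T cells recovered with the hippocampus of middle-aged mice were described from 2 droplet single-cell RNA libraries, 1 from GlaKO mice and 1 from wt littermates. The cells were selected on measured values: a barcode was taken as a T cell when its raw UMIs (unique molecular identifiers, 1 per captured RNA molecule) of Cd3d, Cd3g and Trbc2 summed to at least 3. Its sums of 5 microglial, 5 oligodendrocyte and 6 choroid plexus genes also had to lie under 10, 10 and 8 UMIs. This rule took 366 of 10015 barcodes, 166 in the wt library and 200 in the GlaKO library.

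The mice were 57 weeks old. GlaKO animals lack alpha-galactosidase A, the lysosomal enzyme that is missing in Fabry disease, and wt littermates carry the working gene. All animals were perfused with PBS to wash out blood, and hippocampi were dissociated with enzymes, cleared of debris and sorted for live cells, so the cells that survive these steps set what can be seen. With 1 library per genotype and the number of animals behind each not stated in the labels, no test between genotypes was possible. All intervals below are exact 95% intervals for counting error only, and genotype cannot be told apart from animal, preparation or run.

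T cells recognise peptides through a receptor whose signalling part is the CD3 complex. The healthy brain holds few of them, and memory CD8 T cells that settle in a tissue keep the surface proteins CD69 and CXCR6 and lose the receptors that lead cells back to blood and lymph. Effector cells kill through granzymes and perforin and recruit other cells with chemokines such as CCL5, whereas repeated stimulation brings inhibitory receptors such as PD-1, encoded by Pdcd1, and the transcription factor TOX.

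T cells made up 3.05% of the 5443 wt barcodes (interval 2.61 to 3.54%) and 4.37% of the 4572 GlaKO barcodes (3.80 to 5.01%). The libraries differed far more in choroid plexus epithelium, which held 46.8% of wt and 17.5% of GlaKO barcodes. Over barcodes with a choroid plexus sum under 8, T cells were 5.76% of 2882 in wt (4.94 to 6.67%) and 5.33% of 3754 in GlaKO (4.63 to 6.09%). The order of the genotypes thus depended on the denominator, and without choroid plexus barcodes the intervals overlapped. It also turned with caps of 3 UMIs on the sums of other types, at 2.11% and 1.77% of all barcodes. Microglia were 8.36% and 16.3% of barcodes and oligodendrocytes 15.8% and 30% in wt and GlaKO.

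The T cells held 718708 UMIs in wt and 1092756 in GlaKO, with a median of 4242 and 4966.5 UMIs per cell, and the deepest cell had 8766 and 23167. The libraries shared 6 barcodes, none of them a T cell. Mitochondrially encoded genes took 1.70% and 1.68% of T cell UMIs, and ribosomal protein genes 34.5% and 31.2%. Gla, which encodes the enzyme that GlaKO animals lack, had 6 UMIs in wt T cells and 3 in GlaKO T cells. These were too few to check the genotype in T cells (log2 ratio -1.60, -4.23 to 0.62). Over all barcodes Gla had 397 UMIs in wt and 222 in GlaKO, or 12.4 and 7.42 per 1000000 UMIs. Oligodendrocytes were almost level, at 7.64 and 7.08 per 1000000. Gla RNA was thus lower but still counted in the GlaKO library. Whether these transcripts are intact was not tested.

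The selection had a sharp lower edge. At a sum of exactly 3, 6 wt and 4 GlaKO barcodes were taken; 1 wt barcode and no GlaKO barcode stood just outside at a sum of 2. Of the 6 wt barcodes at the edge, 5 held a UMI of Ccl5 and 5 of Ms4a4b, a membrane protein of T cells, which were not part of the rule; of the 4 GlaKO barcodes, 2 and 4 did. The median sum was 14 in wt and 18 in GlaKO. A further 8 wt and 25 GlaKO barcodes reached the T cell sum and were left out by the caps, with a median of 5025.5 and 10016 UMIs.

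The genes that stood furthest above every other group of barcodes were mostly general T cell genes, with some of cytotoxic cells among them. This describes the selected cells and is no test. Trbc1, the constant segment of the receptor beta chain that the rule did not use, was 88.3 times its level in the next group. Fasl, the ligand that triggers death in cells bearing Fas, stood at 82.5 times, Themis, a thymocyte signalling protein, at 69.8 times, and Cd3e at 65.6 times. Eomes, a transcription factor of CD8 effector and memory cells, followed at 64.5 times, Ccl5 at 64.4, Lat, the adaptor below the receptor, at 59.5, the interleukin-2 and interleukin-15 receptor chain Il2rb at 58.2 and Cxcr6 at 55.7. The next group was in each case the remaining barcodes, which include the 33 removed by the caps.

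**Figure D1:**
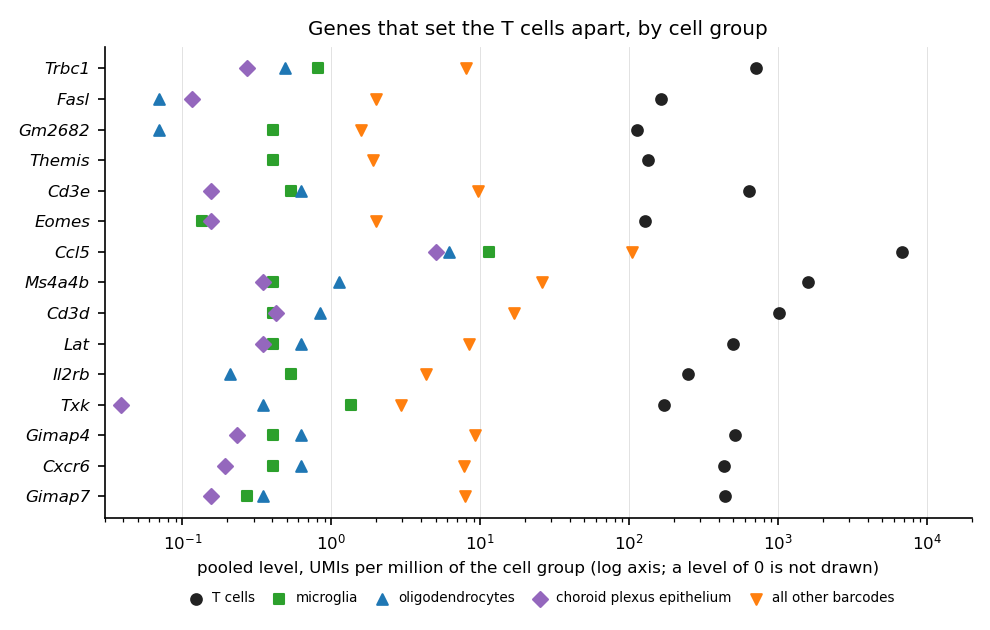
Level of the 15 genes with the highest ratio of T cells to the next group, in CPM of each cell group on a log axis, both libraries pooled. T cells (black) lie to the right of the other 4 groups for each gene, and Ccl5 reaches the highest level. Cd3d, also drawn, helped choose the cells, so its separation follows from the rule.

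The cells were mostly of the CD8 lineage. At least 1 UMI of Cd8a or Cd8b1, the 2 chains of the CD8 coreceptor, was found in 141 of 166 wt T cells (84.9%, 78.6 to 90%) and 160 of 200 GlaKO T cells (80.0%, 73.8 to 85.3%). Oligodendrocytes, which lack CD8, gave 0 of 858 and 2 of 1373. With each cell reduced to 1000 UMIs, the expected shares of T cells were 65.8% and 60.3%. Cd8a had 452 UMIs in wt and 620 in GlaKO, and Cd8b1 510 and 786, with log2 ratios of the library-scaled levels (GlaKO over wt) of -0.15 (-0.33 to 0.03) and 0.02 (-0.14 to 0.18). The T cells without a CD8 UMI, 25 and 40, are a remainder by depth and lineage; Cd4 and Foxp3 are not analysed here.

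Levels are given below as CPM, the UMIs of a gene divided by all UMIs of the cells named and scaled to 1000000. Cells with and without a CD8 UMI were compared within each library. Over all 4425 compared genes, 61 (1.38%) were higher in the CD8 cells and 97 (2.19%) lower by their intervals in both libraries. Of 74 genes examined, members of 4 lists and further genes named here, 66 were among those compared, and 12 were higher and 10 lower. They were chosen with values known, so that nothing is read from their share. Itgb1, an integrin chain, was called in opposite directions, at 1.01 (0.45 to 1.62) in wt and -0.43 (-0.74 to -0.12) in GlaKO, as was Gzmb. Over all compared genes 14 were. Leaving out 18 barcodes that also held at least 10 UMIs of astrocyte, oligodendrocyte precursor or neuron genes (mixed barcodes) gave 10 and 11, with 10 and 10 shared; Ms4a4b and Pdcd1 were the 2 lost among the higher genes. Ccl5 stood at 7701 CPM in CD8 cells and 2973 in the rest of the wt T cells, and at 7393 and 2441 in GlaKO. Nkg7, a protein of cytotoxic granules, was 1858 and 779 in wt and 1691 and 832 in GlaKO. Gzmk, a granzyme of memory CD8 cells, was 404 and 114 in wt and 327 and 212 in GlaKO. Eomes (log2 2.02 in wt and 0.84 in GlaKO), Ifng (1.15 and 1.04), the cytokine interferon gamma, and Xcl1 (1.14 and 1.29), a chemokine for cross-presenting dendritic cells, were also higher in the CD8 cells. So was Ly6c2, a surface marker of memory and effector CD8 cells, at 1.26 and 2.40.

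The cells without a CD8 UMI carried the genes of the other direction. Maf, a transcription factor of helper and regulatory cells, was at 304 CPM there and 47.3 in the CD8 cells of wt, and at 451 and 66.0 in GlaKO. Icos, a costimulatory receptor, was at 313 and 60.3 in wt and at 484 and 133 in GlaKO. Gata3 (log2 of CD8 over the rest -1.33 and -1.69), Nr4a3 (-1.69 and -1.77) and S1pr1, the receptor for exit from tissue (-1.54 and -1.55), were lower in CD8 cells in both libraries. Fcer1g, a signalling chain of natural killer and myeloid cells, was 33 of 36 UMIs outside the CD8 cells in wt and 13 of 27 in GlaKO.

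**Figure D2:**
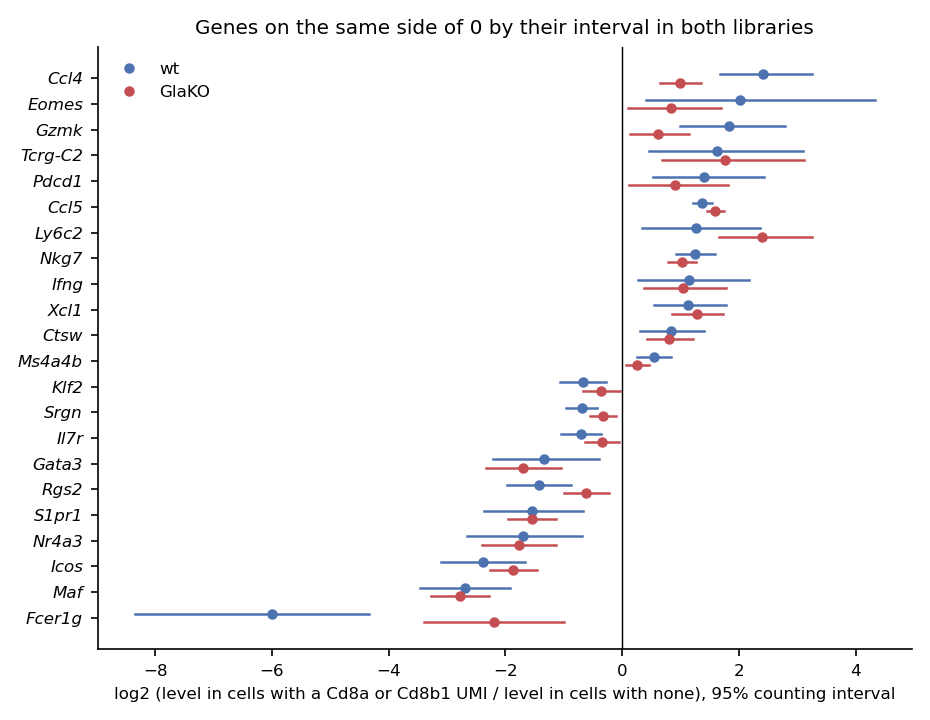
Log2 ratio of T cells with a Cd8a or Cd8b1 UMI over those without, for list genes with intervals that lie on the same side of 0 in both libraries, with 95% counting intervals. Ccl5, Nkg7 and Gzmk lie to the right and Maf, Icos and S1pr1 to the left in wt and GlaKO alike.

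The genotype comparison covered 4427 genes with at least 50 T cell UMIs over both libraries. Of these, 426 (9.62%) were at least 1.5-fold higher and 144 (3.25%) at least 1.5-fold lower in GlaKO T cells. By the counting interval 445 (10.1%) were higher and 230 (5.2%) lower. At any size 2595 of the 4427 genes were higher and 1832 lower, and the median log2 ratio of all genes was 0.07. These shares are the background for the gene lists that follow.

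The listed T cell receptor and signalling genes were level between the genotypes. Of 20 compared, 10 were higher and 10 lower, the median log2 ratio was 0.00, and the interval left 0 for Trbc1 alone. The 3 genes of the selection were counted apart, and 2 of them were higher by their intervals (median 0.17). Txk, a defining gene outside this list, was lower (-0.40, -0.73 to -0.06), with an interval that held 0 under 4 alternatives. Trbc1 had 610 UMIs in 119 wt cells and 673 in 119 GlaKO cells (-0.46, -0.62 to -0.30). Trbc2, used in the selection, had 859 and 1627 UMIs (0.32), and Trbc1 exceeded Trbc2 in 64 of 166 wt cells (38.6%, 31.1 to 46.4%) and 48 of 200 GlaKO cells (24.0%, 18.3 to 30.5%). The 2 segments are near-identical copies, so how reads were split between them is uncertain.

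Effector genes were abundant in both libraries, and most were close between them. Of 16 compared, 9 were higher and 7 lower in GlaKO, 4 and 2 by their intervals, with a median of 0.04. Ccl5 had 5037 UMIs in 145 of 166 wt cells and 7168 in 177 of 200 GlaKO cells, or 7008 and 6559.6 CPM, a difference of -0.10 (-0.15 to -0.04). At least 1 Ccl5 UMI was present in 87.3% and 88.5% of T cells against 4.43% and 3.35% of oligodendrocytes.

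Nkg7 (1222 and 1690 UMIs, -0.14), Ifng (153 and 223, -0.06) and Ctsw (366 and 579, 0.06), a cathepsin of killer cells, also differed little. Gzmk had 260 UMIs in 108 wt cells and 336 in 122 GlaKO cells (-0.23, -0.47 to 0.00). The granzymes thus did not move together, since Gzmb (chr14:56258838-56262260, minus strand), which starts the caspase cascade in target cells, had 113 UMIs in wt and 343 in GlaKO, or 157 and 314 CPM (1.00, 0.69 to 1.32).

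Gzmb was carried by few cells. A UMI was found in 23 of 166 wt cells (13.9%, 8.99 to 20.1%) and 47 of 200 GlaKO cells (23.5%, 17.8 to 30%), against 0.233% and 0.146% of oligodendrocytes, and the highest cell held 19 and 45. Thinned to 1000 UMIs, the expected shares were 7.53% and 13.4%. The tenth of T cells with the most Gzmb held 94.7% of its UMIs in wt and 85.1% in GlaKO. Without the barcodes that also held genes of other cell types the ratio was 1.03 (0.72 to 1.35). Eomes (74 and 158 UMIs, 0.49, 0.08 to 0.91), Xcl1 (345 and 639, 0.28, 0.09 to 0.48) and Zeb2 (30 and 80, 0.81, 0.19 to 1.47) were the other effector genes that were higher by the interval. The intervals of Eomes and Xcl1 held 0 without the cell with the most UMIs in each library, where they stood at 0.40 (-0.02 to 0.84) and 0.19 (-0.01 to 0.39), and Eomes stood at 0.17 (-0.42 to 0.76) with caps of 3 on the sums of other types. Zeb2, a transcription factor of terminal effector cells, reached 765 CPM in another cell group. It was also higher in GlaKO by its interval in each other cell group, from 0.18 in microglia to 1.58 in choroid plexus cells. The rise of Zeb2 was thus no feature of T cells.

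Residency genes were split. Of 12 compared, 6 were higher and 6 lower, 4 and 1 by their intervals, and the median was 0.05 (-0.12 in CD8 cells alone). Cxcr6, the receptor that holds memory cells in tissue, had 275 UMIs in 108 wt cells (65.1%) and 503 in 137 GlaKO cells (68.5%; log2 ratio 0.27, 0.05 to 0.48). Cd69, which blocks tissue exit by binding the S1P receptor, had 402 and 535 UMIs in 131 and 160 cells (-0.19, -0.38 to -0.00). These 2 leading genes of the list lay on opposite sides of 0 and close to it. Rgs1, a brake on chemokine receptors, had 405 and 726 UMIs (0.24, 0.06 to 0.42) and Rgs2, of the same family, 136 and 308 (0.57, 0.28 to 0.88). Rgs2 was also higher in GlaKO choroid plexus cells (0.92, 0.68 to 1.16) and in the remaining barcodes (0.82, 0.57 to 1.07). In microglia (-0.01) and oligodendrocytes (0.05) its interval held 0. Itga1, a collagen-binding integrin, had 37 UMIs in 28 wt cells and 101 in 55 GlaKO cells (0.84, 0.29 to 1.43). Runx3 (-0.12), Bhlhe40 (-0.11) and Prdm1 (0.11), transcription factors of resident memory, had intervals that held 0. Itgae, Zfp683 and Crtam are not analysed here. The intervals of Cxcr6 and Rgs1 held 0 under 5 alternatives each and that of Cd69 under 8.

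Genes of recirculating and naive cells were mostly level, with 8 of 11 compared higher and 3 lower, 4 and 0 by their intervals, and a median of 0.07. S1pr1 (chr3:115710433-115715072, minus strand) had 57 UMIs in 24 wt cells and 218 in 49 GlaKO cells, or 79.3 and 199 CPM (1.33, 0.90 to 1.78). Astrocyte genes moved with it: all 7 were detected in both libraries, their summed level was 462 CPM in wt T cells and 1377 in GlaKO, and 1 GlaKO barcode held 351 of the 1505 UMIs. Without the 8 wt and 10 GlaKO barcodes with at least 10 UMIs of astrocyte, oligodendrocyte precursor or neuron genes, the astrocyte sum was 352 and 284 CPM and S1pr1 stood at 0.48 (0.00 to 0.97); it stood at 0.79 without the 4% of barcodes with the highest doublet scores. Ly6c2 had 150 UMIs in 43 wt cells and 405 in 76 GlaKO cells (0.83, 0.55 to 1.11), and Klf3 43 and 99 (0.60, 0.07 to 1.15). The interval of Klf3 held 0 under 4 of 11 alternatives, TMM and median-of-ratios scaling among them. The genes that define naive and central memory cells were close, with Ccr7, the lymph node homing receptor, at 50 UMIs in 13 cells and 89 in 21 (0.23, -0.29 to 0.76), Tcf7 at 114 and 176 (0.02), Lef1 at 53 and 64 (-0.33, -0.88 to 0.22) and Il7r at 424 and 581 (-0.15, -0.33 to 0.03).

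Among exhaustion genes and inhibitory receptors, Pdcd1 and Tox were lower in GlaKO T cells and Maf higher, as Maf was in each other cell group. Of the 19 genes listed, 7 could be compared, 4 higher and 3 lower, each with 2 by the interval, and the median was 0.07 (-0.17 in CD8 cells alone). Pdcd1 (chr1:94038305-94052553 in GRCm38, minus strand, protein coding) had 181 UMIs in wt and 144 in GlaKO, or 252 and 132 CPM (-0.93, -1.26 to -0.61). A Pdcd1 UMI was found in 73 of 166 wt cells (44.0%, 36.3 to 51.9%) and 60 of 200 GlaKO cells (30%, 23.7 to 36.9%), although the GlaKO cells were deeper, and in 0.233% and 0.146% of oligodendrocytes. With each cell thinned to 1000 UMIs the expected shares were 20.2% and 11.3%. The ratio was -0.95 (-1.29 to -0.62) in CD8 cells alone and stayed below 0 by its interval in every alternative tried, from -1.41 to -0.89.

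Tox, which maintains the exhausted state, had 110 UMIs in 73 wt cells and 119 in 65 GlaKO cells (-0.49, -0.88 to -0.10); its interval held 0 with caps of 3. Maf had 61 and 143 UMIs (0.62, 0.18 to 1.08), but its interval held 0 in CD8 cells alone (0.48, -0.18 to 1.17) and with caps of 3. Maf was also higher by its interval in each other cell group, from 0.36 in microglia to 0.85 in oligodendrocytes, so its rise was no feature of T cells. Its pooled level was 612 CPM in microglia and 113 in T cells. Nr4a3, induced by receptor signalling, had 42 and 93 (0.54, 0.00 to 1.10), an interval that touched 0 and held it under 7 of 11 alternatives, TMM and median-of-ratios scaling among them. The list's members therefore pointed in both directions. Nr4a2 (138 and 229 UMIs, 0.13), Entpd1 (27 and 43, 0.07) and Nfatc1 (45 and 62, -0.14) had intervals that held 0. Lag3, with 19 UMIs in each library, Havcr2, with 10 in each, Cd200 and Tox2 were too low to compare, and Tigit is not analysed here.

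**Figure D3:**
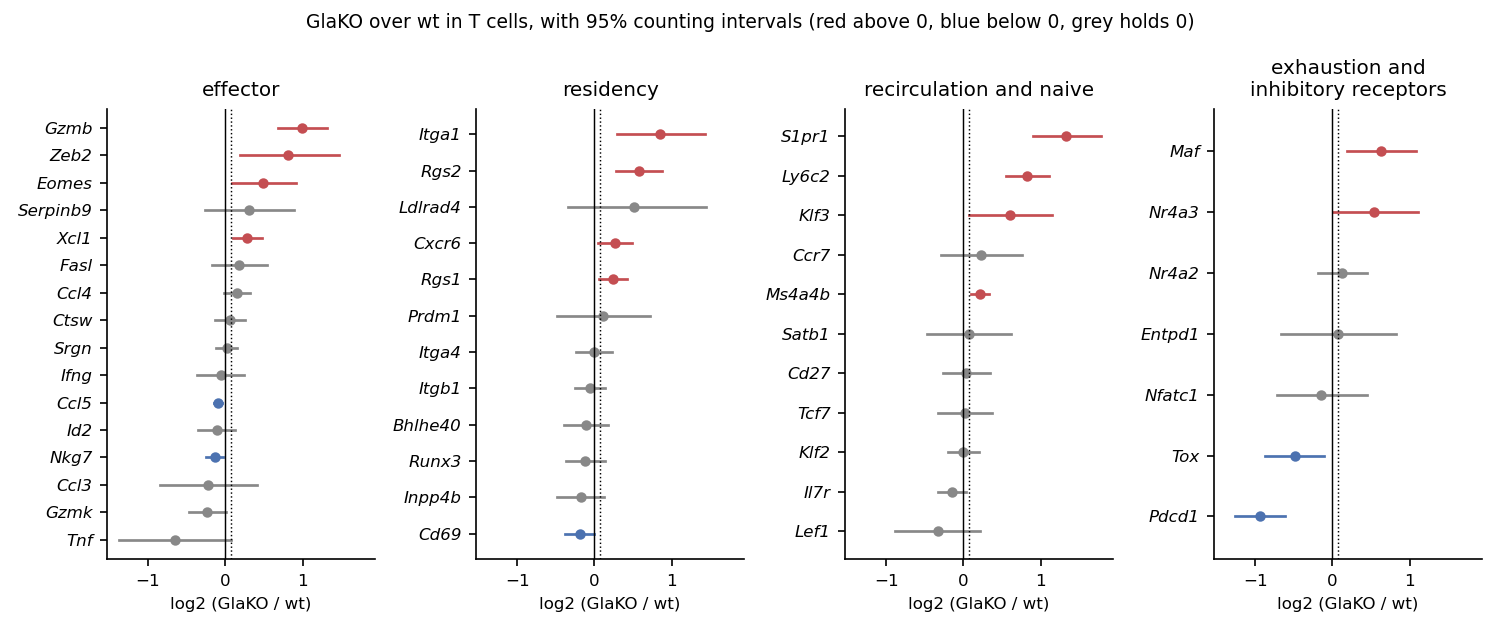
Log2 ratio of GlaKO over wt T cells for compared genes of the effector, residency, recirculation and exhaustion lists, with 95% counting intervals; the dotted line is the median of all genes. Pdcd1 at -0.93 lies furthest below 0, and S1pr1 at 1.33 and Gzmb at 1.00 lie furthest above, although S1pr1 stands at 0.48 and Gzmb at 1.03 without the mixed barcodes.

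In both libraries, cells with a Pdcd1 UMI had more Tox and Cxcr6 and less of several naive genes, while the residency list was split. By intervals in both, 26 of 4426 compared genes (0.587%) were higher with Pdcd1 and 29 (0.655%) lower. This split, like those on Cxcr6 and S1pr1 below, was chosen after values had been seen. T cells with a Pdcd1 UMI had median depths of 4281 and 4531.5 UMIs, and those without 4228 and 5029, in wt and GlaKO. Tox was 208 CPM in cells with Pdcd1 and 113 in cells without it in wt, and 180 and 74.6 in GlaKO. Cxcr6 was 478 and 313 in wt and 611 and 388 in GlaKO, whereas Tcf7 was 92.3 and 207 in wt and 87.2 and 197 in GlaKO. Rgs1, another residency gene, was lower with Pdcd1, at -0.44 (-0.74 to -0.14) in wt and -0.65 (-0.90 to -0.40) in GlaKO. Itga4 and Itgb1 were higher by their intervals in both libraries, and Cd69, Itga1, Rgs2 and Runx3 had intervals that held 0 in each. Over all compared genes 26 were called in opposite directions. Ctsw was among them, at 0.45 (0.15 to 0.76) in wt and -0.32 (-0.59 to -0.06) in GlaKO. Ccr7 had 2 of its 50 UMIs in cells with Pdcd1 in wt and 1 of 89 in GlaKO.

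Cells with a Cxcr6 UMI and cells with an S1pr1 UMI were set against the rest in the same way. With Cxcr6, Pdcd1 was 309 CPM against 153 without it in wt, and 162 against 67.9 in GlaKO. Rgs1 was 646 against 420 in wt and 875 against 223 in GlaKO. Klf2, the transcription factor that drives S1pr1, was lower with Cxcr6, at 337 against 706 in wt and 349 against 724 in GlaKO. Cd69 was lower with Cxcr6 in wt (-0.37, -0.66 to -0.07) and level in GlaKO (0.08, -0.19 to 0.35). By intervals in both libraries, 45 of 4426 compared genes (1.02%) were higher with Cxcr6 and 43 (0.972%) lower. In opposite directions 18 were called, Gzmb, Ikzf2 and Trbc1 among them. In cells with an S1pr1 UMI, 24 in wt and 49 in GlaKO, Ccr7 held 43 of its 50 UMIs in wt and 76 of 89 in GlaKO. Gzmb was 25.2 CPM in them against 183 in the rest of the wt T cells, and 80.8 against 406 in GlaKO. Ccr7, Klf2 and Tcf7 went with S1pr1, and Gzmb, Xcl1, Rgs1 and Cxcr6 stood lower there, in each library. By intervals in both libraries, 37 of 4426 compared genes (0.836%) were higher with S1pr1 and 49 (1.11%) lower. Called in opposite directions were 21, Gata3 among them. Of 75 genes examined, chosen with values known, 7 were higher and 14 lower. Without the mixed barcodes 7 and 13 of these stayed so. Cells with an S1pr1 UMI were deeper, with medians of 5024 and 6205 UMIs against 4216 and 4708.

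Chemokine and cytokine receptors had a median of 0.26 over 11 compared genes. Of these, 8 were higher and 3 lower, 4 and 0 by the interval. Ccr2, the receptor for CCL2, had 30 UMIs in 20 wt cells and 109 in 59 GlaKO cells (1.26, 0.66 to 1.89). Cxcr4, the receptor for CXCL12, had 131 and 294 (0.56, 0.26 to 0.87). Cxcr4 was also higher in GlaKO microglia (1.43, 0.70 to 2.25) and in the remaining barcodes (0.60, 0.24 to 0.98). In oligodendrocytes (0.09) and choroid plexus cells (1.03) its interval held 0. Cxcr3, a receptor for interferon-induced chemokines, was level at 124 and 186 (-0.02).

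Of 13 costimulation genes 7 were higher and 6 lower, and Icos stood out with 70 UMIs in 38 wt cells and 210 in 85 GlaKO cells (0.98, 0.58 to 1.39). Its ratio within CD8 cells was 1.14 (0.60 to 1.71). Cd52 was higher (1494 and 2681 UMIs, 0.24) and Ltb lower (500 and 633, -0.26). Of 4 natural killer receptor genes compared, Klrc1, the inhibitory chain NKG2A, was lower with 141 UMIs in 54 wt cells and 119 in 51 GlaKO cells (-0.85, -1.21 to -0.49; -0.44, -0.91 to 0.02 with caps of 3), Fcer1g was lower (-1.02) and Klrk1, the activating receptor NKG2D, higher (160 and 306 UMIs, 0.33, 0.05 to 0.62), with an interval that held 0 under 4 alternatives.

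All 14 interferon-stimulated genes compared were higher in GlaKO T cells, 8 of them by the interval, although Rtp4 turned lower with TMM or median-of-ratios scaling and without the mixed barcodes, for example, and Ifi203 with caps of 3 on the sums of other types. Their median log2 ratio was 0.56 against 0.07 for all genes. Isg15, a ubiquitin-like protein, had 51 UMIs in 32 wt cells and 156 in 56 GlaKO cells (1.01, 0.54 to 1.49). Ifit3, of an antiviral protein family, had 20 and 55 UMIs (0.85), Irf7, the factor that amplifies type I interferon, 34 and 81 (0.65), and Ifi27l2a 317 and 705 (0.55, 0.36 to 0.74). The intervals of Irf7 and Xaf1 held 0 under 4 and 7 alternatives, both scalings among them. Ifi27l2a rested on few cells: it stood at 0.05 without the 6 cells rich in cell cycle genes described below and at -0.24 with caps of 3. Bst2, a tether of viral particles, had 140 and 278 UMIs (0.39, 0.09 to 0.69) and Gbp7, a guanylate-binding protein, 55 and 124 (0.57, 0.10 to 1.05). Ifi203 (0.15), Ifi47 (0.28) and Rtp4 (0.04) had intervals that held 0. In other cell groups the same list had medians of -0.14 in microglia (14 genes, 3 higher), -0.13 in oligodendrocytes (6, 2), -0.18 in choroid plexus cells (10, 4) and -0.16 in the remaining barcodes (15, 4). Whether the T cells differ from those groups was not tested.

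The excess lay in a tail of cells. Summed over the 14 genes, the median T cell had 12 UMIs per 10000 in wt and 12.6 in GlaKO, while the level that 90% of cells stayed under was 25.5 and 53.1. At or above 50 per 10000, a limit set after the values were seen, were 7 of 166 wt cells (4.22%, 1.71 to 8.50%) and 22 of 200 GlaKO cells (11%, 7.02 to 16.2%). These cells held 28.3% and 43.1% of the list's UMIs. All 7 in wt and 16 of 22 in GlaKO had a CD8 UMI, and 6 and 15 a Cxcr6 UMI. Haemoglobin UMIs, from 4 genes, were in 16.3% of wt and 45.5% of GlaKO T cells, and their part in these results was not tested.

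**Figure D4:**
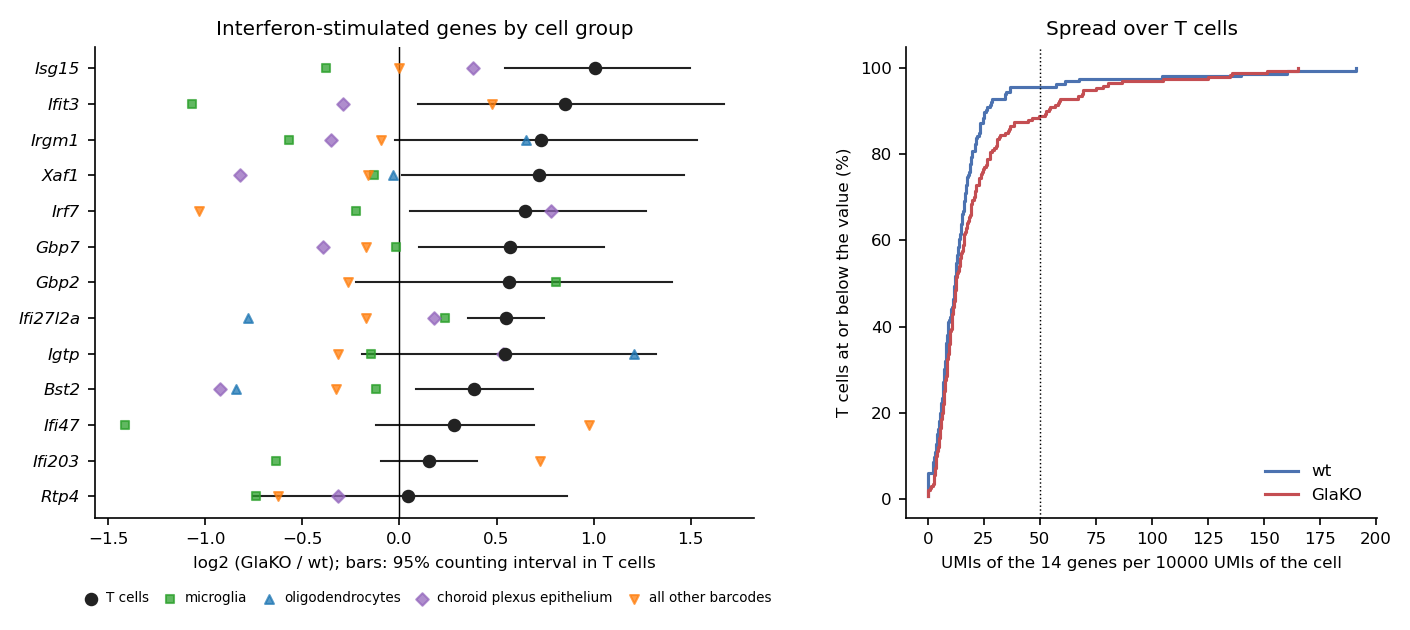
Left, log2 ratio of GlaKO over wt for 13 of the 14 interferon-stimulated genes in T cells (black, with 95% counting intervals) and in 4 other cell groups; right, share of T cells at or below each summed level of the 14 genes per 10000 UMIs of the cell, with the limit of 50 dotted. All black points lie above 0 (Rtp4 turns lower with TMM scaling), and the curves part above the median.

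The promoters of these genes were read because the genes were higher together, and searched for the core of the element that interferon regulatory factors bind. Of the 11 compared interferon-stimulated genes with an entry in the RefSeq table of GRCm38.p6 promoters (250 bases before to 50 after the start), 8 held GAAANNGAA on either strand; overlapping matches were counted once per gene. The word was in 9.79% of the 3512 compared genes with an entry and in 9.76% of all 27025 genes. The match is a description and does not show binding. For 5 of the genes 1 match with 10 bases on each side is printed 5′ to 3′ on the strand that reads GAAANNGAA, capitals marking the word.
Isg15: gtaggaaaagGAAACCGAAacagaaaata
Irgm1: tcaagaaataGAAACCGAAactgattctc
Igtp: tctaggaactGAAACTGAAagctgttcgg
Gbp7: atggagaactGAAACTGAAactgcacaca
Bst2: ccaggaaaatGAAACTGAAaggctgcagt
The Isg15 word lies at -72 from the start in the promoter window chr4:156200769-156201068 (minus strand gene), that of Irgm1 at -24 in chr11:48871371-48871670 (minus strand), that of Igtp at -34 in chr11:58199306-58199605 (plus strand), that of Gbp7 at -52 in chr3:142530086-142530385 (plus strand gene, word on the opposite strand) and that of Bst2 at -124 in chr8:71537423-71537722 (minus strand). Irgm1 had log2 0.73 (-0.02 to 1.53) and Igtp 0.54 (-0.19 to 1.32), so that words alike in sequence sat before genes with and without an interval above 0.

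Cells with genes of DNA replication and division were found among the GlaKO T cells. By at least 10 UMIs of Stmn1, Pcna, Mcm3, Mcm6, Tyms and Cdk1, a limit chosen after the values were seen, 6 of 200 GlaKO T cells (3.00%, 1.11 to 6.42%) and 0 of 166 wt T cells (upper limit 2.20%) passed. Their sums ran from 42 to 85, against at most 5 in any wt cell. Of the 648 UMIs of the 6 genes in GlaKO T cells, these cells held 402 (62.0%). They had 11151 to 23167 UMIs each, well above the GlaKO median; 5 had a CD8 UMI, and none was among the barcodes with genes of astrocytes, precursors or neurons.

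Top2a, which untangles DNA for division, had 64 of its 96 UMIs in these 6 cells and Mki67 58 of 68, both without a wt value here. Stmn1, a microtubule regulator of dividing cells, had 53 UMIs in 46 wt cells and 337 in 89 GlaKO cells (2.06, 1.64 to 2.51), and 0.76 (0.28 to 1.25) without the 6 cells. With caps of 3 it stood at 0.31 (-0.38 to 1.00). Stmn1 is abundant in oligodendrocytes, where 98.1% of wt and 97.2% of GlaKO cells had a UMI against 27.7% and 44.5% of T cells, and oligodendrocyte genes were higher in GlaKO T cells, at 1076 CPM against 685; their part in the Stmn1 ratio was not tested. The proliferation list had a median of 1.43 over 6 compared genes, and 0.14 over 4 without these cells.

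**Figure D5:**
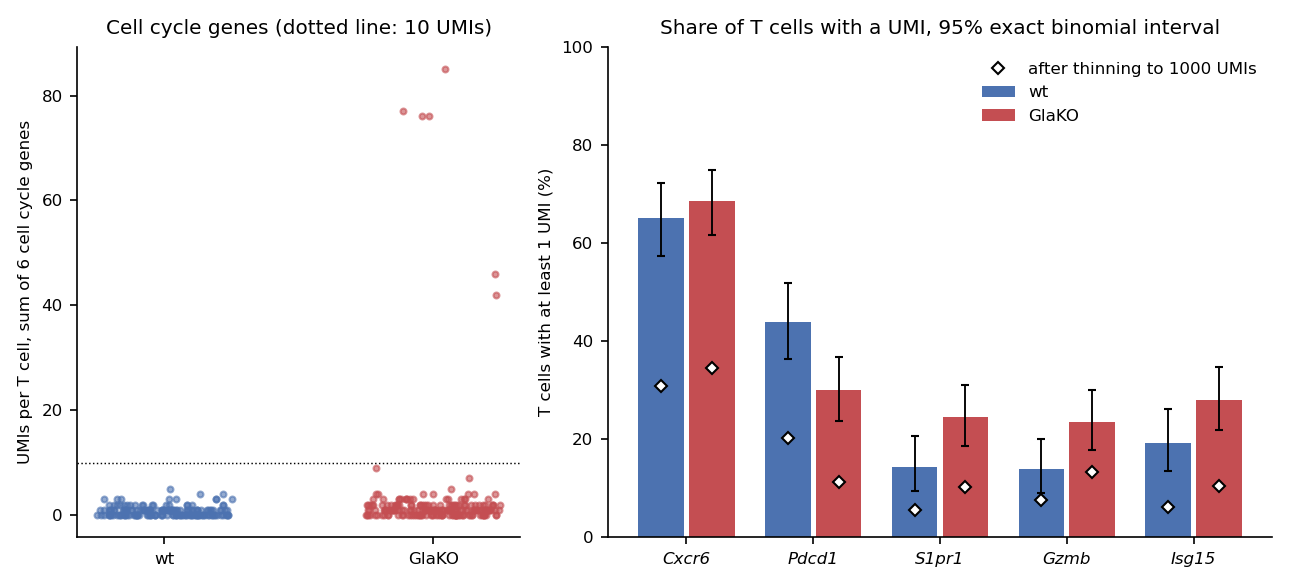
Left, UMIs per T cell summed over 6 cell cycle genes, each point a cell, with the limit of 10 dotted; right, share of T cells with at least 1 UMI of 5 genes (bars, with exact 95% intervals) and the expected share with each cell thinned to 1000 UMIs (diamonds). The 6 GlaKO cells between 42 and 85 stand clear of all wt cells, and Pdcd1 is the gene of the 5 with the lower share in GlaKO.

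Immediate-early and heat-shock genes, which tissue dissociation can induce, were compared for that reason. Of 17 immediate-early genes 7 were higher and 10 lower (2 and 6 by the interval, median -0.11), with Fos at 0.53 (0.29 to 0.77) and Zfp36 at -0.78 (-1.24 to -0.32). Of 11 heat-shock genes 3 were higher and 8 lower (median -0.05). Among 11 genes of MHC class I antigen presentation 8 were higher and the median was 0.09. Of 20 lysosomal and glycosphingolipid genes 14 were higher and 6 lower, with a median of 0.26 and only Ctsl, at 17 and 47 UMIs (0.86, 0.04 to 1.76), by its interval, which held 0 under 6 of 9 alternatives.

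By a fixed rule of size, the 10 highest genes in GlaKO T cells were led by Plac8, with 13 UMIs in 8 wt cells and 105 in 31 GlaKO cells (2.41), Mcm3 (8 and 57 UMIs, 2.23) and the histone gene Hist1h2ae (16 and 86, 1.82). Plac8 was higher by its interval in GlaKO microglia too, at 2.92 (1.48 to 4.84), and in the remaining barcodes, at 1.79 (1.33 to 2.26). In oligodendrocytes and choroid plexus cells Plac8 had no ratio. Of the 57 Mcm3 UMIs, 37 lay in the 6 cells rich in cell cycle genes. Rnaset2a (34 and 170, 1.72), Lgals3bp (12 and 58, 1.67), a secreted glycoprotein induced by interferon, Hsd11b1 (13 and 60, 1.60), an enzyme that activates glucocorticoids, Dcaf13 (1.58), Cdk2ap1 (1.53), Snx4 (10 and 43) and Iars (1.46), an aminoacyl-tRNA synthetase, completed them. Among the 10 lowest were Gm26825 (42 and 11, -2.54), Gm10076 (1543 and 960, -1.29), Fam120b (-1.24), Mfap1b (-1.16), Pik3ip1 (60 and 43, -1.09), an inhibitor of PI3 kinase, Tnip1 (29 and 21, -1.07), Il16 (51 and 38, -1.03), 9130401M01Rik and 2510002D24Rik. Rnaset2a, Gm10076 and Gm26825 lay on the same side of 0 in all 4 other cell groups, so these 3 were no feature of T cells. In choroid plexus cells the interval of Gm26825 held 0 (-0.23, -0.80 to 0.32). These 3 have near-identical copies or overlapping genes, and their counts are uncertain. Cdk2ap1 was also higher by its interval in all 4 groups, from 0.60 in microglia to 1.18 in choroid plexus cells. Mfap1b, Iars and Snx4 kept their side of 0 in all 4 as well, with smaller ratios than in T cells.

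Genes of other cells were present at low levels. The sum of the 9 oligodendrocyte genes, given above, was 1.22% and 2.05% of the level in oligodendrocytes, and at least 1 of their UMIs was in 85.5% and 99.0% of T cells. The 11 microglia genes summed to 717 and 855, of which Selplg, which T cells also express and which the cap counts, made 434 and 489. Choroid plexus genes summed to 214 and 88.8. B cell genes summed to 94.6 and 97.0 with Cd79a and Cd79b at 0, and those of border macrophages to 6.96 and 8.24 with Mrc1, Pf4 and Ms4a7 at 0. The part of these traces in the differences above was not tested, except where a value without the mixed barcodes is given.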

How the data were processed

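Per the labels, viable hippocampal cells went into Chromium 3′ libraries of chemistry 3.1, with about 10000 cells loaded. Per the submitters' processing notes, Cell Ranger 6.0.1, R 4.1.3 and Seurat 4 were used with mm10; no source used here states the settings or filters. The deposited values are raw UMI counts per gene and barcode.

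UMIs were summed over the T cells of each library and scaled to their total. Intervals of ratios are exact conditional binomial ones, those of shares Clopper-Pearson, at 95%. Genes with at least 50 UMIs over both libraries were compared. Doublets were not removed beyond the caps; Scrublet (scanpy 1.11.5) served as an alternative. Python 3.11.15, numpy 2.4.6, scipy 1.17.1 and pandas 2.3.3 were used, and edgeR 4.0.16 only for TMM factors.

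The members and gene lists were chosen with earlier results of these data known. Named genes were list members with at least 50 UMIs; the 10 highest and 10 lowest ratios among 2586 genes with at least 50% of their level in every other group, UMIs in at least 10 cells and no cell with over 25% of a library's UMIs; and the 15 defining genes with at least 200 UMIs. Some of the named genes are not reported here. A planned split by Cd4 was replaced by a split on CD8 UMIs. On simulated counts, 95.5% of 4248 unchanged genes had an interval that held 0. Of 100 genes raised 2-fold 92% were found higher, and of 77 lowered 2-fold 87.0% were found lower. The simulated counts were Poisson draws of the library sums, without the uneven spread over cells seen here. These shares therefore need not hold for genes carried by few cells, such as Gzmb.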

Additional observations from a re-analysis of the deposited data

Results flagged for a closer look

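Some list genes have T cell values in 1 library only, so they entered no ratio, and they are given as counts; the other library's value is not analysed here. In GlaKO T cells these were the effector genes Gzma (78 UMIs, all in 8 cells), Prf1 (83 in 60 cells), which encodes perforin, and Cst7 (96), the inhibitory receptors Ctla4 (107 in 44 cells) and Cd160 (71), the transcription factor Batf (54), the signalling inhibitor Cd5 (133), the receptors Il18r1 (97) and S1pr4 (74), the division genes Mki67 (68) and Top2a (96), the interferon-stimulated genes Ifi206 (81), Gbp4 (85) and Zbp1 (78), and Nlrc5 (73), the activator of MHC class I genes. In wt T cells it was Klre1 (65), a natural killer receptor. Gzma was concentrated in few cells and Prf1 spread over many.

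Barcodes that reached the T cell sum but passed a cap of another cell type, 8 in wt and 25 in GlaKO, also entered no comparison. The microglia cap removed 4 and 13 of them, the oligodendrocyte cap 3 and 9 and the choroid plexus cap 1 and 3. Whether they are doublets was not tested.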

How the results depend on the processing

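No paired analysis was possible because each genotype has 1 library. Of 138 alternative values for 14 shares, counts and list medians, 101 stayed within a margin and 37 moved. The margin was the 95% interval for shares, 0.1 for medians and 1.5 times for counts of genes. Reversal was scored for single genes only, so a turned order or sign was not scored among these. Of 756 values for 67 genes, 724 stayed, 30 moved and 2 reversed. Dropping the minimum count or raising it to 200 leaves a gene's ratio as it is, so those values could only stay. With caps of 3 UMIs on the sums of other cell types, which also remove T cells by their Selplg UMIs, the T cell share was 2.11% in wt and 1.77% in GlaKO, so the order of the libraries turned, and 3.99% and 2.16% without choroid plexus barcodes; 159 genes were higher, and the medians were -0.14 for residency, 0.36 for interferon-stimulated and 0.34 for proliferation genes. With cells thinned to 1000 UMIs the shares were 1.96% and 3.33%, and 2.46% and 3.53% without choroid plexus barcodes, the CD8 shares 65.8% and 60.3%, 39 genes were higher and 8 lower, and the medians were -0.052 for residency, -0.40 for exhaustion and 0.32 for interferon-stimulated genes. With no minimum, 2279 genes were higher and 1872 lower, and the medians were -0.38 for exhaustion and 1.64 for proliferation; with a minimum of 200, 56 and 9, and -0.056 for residency, -0.18 for exhaustion, 0.37 for interferon-stimulated and 2.06 for proliferation genes. In CD8 cells alone the medians were -0.12 for residency, 0.19 for recirculation and -0.17 for exhaustion. A minimum T cell sum of 5 gave 0.20 for exhaustion, and leaving out the 4% of barcodes with the highest Scrublet scores (250 in wt and 204 in GlaKO with ties, 5 of each being T cells) gave 1.54 for proliferation. Proliferation stood at 1.15 with each gene's top cell in each library left out and 0.14 without the 6 cycling cells, where recirculation stood at 0.18. The exhaustion and residency medians thus took either sign, while the interferon-stimulated median was above 0 in every alternative run. Ifi27l2a reversed with caps of 3 (-0.24) and stood at 0.05 without cycling cells; Pcna reversed without cycling cells (-0.15). With caps of 3 the intervals of Klrc1 (-0.44), Itga1, Cd52, Ltb, Bst2 and Gbp7, among others, also held 0. TMM and median-of-ratios scaling shifted all log2 ratios by -0.08 and -0.07. The cause of these moves was not tested where fewer cells or genes do not give it. Depth limits genes under 50 UMIs, among them Lag3 and Havcr2.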

Other observations

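The splits of Gzmb over T cells lay in opposite directions in the 2 libraries. In wt it was at 137 CPM in cells with a CD8 UMI (84 UMIs) and 275 in the rest (29 UMIs), and in GlaKO at 342 (311 UMIs) and 174 (32 UMIs). By Cxcr6 it was at 118 with and 225 without a UMI in wt, and at 436 and 59.4 in GlaKO. The difference between the libraries was not tested, and few cells carry the gene. These splits were looked at after the values were known.

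Tcrg-C2, a constant segment of the gamma chain that CD8 alpha-beta cells can also transcribe, had 114 UMIs in 62 wt cells and 125 in 52 GlaKO cells (log2 -0.47, -0.85 to -0.09), and 108 and 118 of them were in cells with a CD8 UMI. Ikzf2, which encodes the transcription factor Helios, had 36 UMIs in 19 wt cells and 97 in 27 GlaKO cells (0.83, 0.26 to 1.42), but 0.23 (-0.48 to 0.97) in CD8 cells alone. The mitochondrial gene mt-Nd4l (702 and 563 UMIs, -0.92) lay apart from the other mitochondrially encoded genes, with mt-Nd4 at 0.40 and mt-Nd2 at 0.30. It was lower in the other cell groups too, at -0.69 in microglia, -0.85 in oligodendrocytes, -1.42 in choroid plexus cells and -0.89 in the remaining barcodes, so that it was no feature of T cells.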
